A study of Homo sapiens with 18 samples.

Results

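The negative control libraries of MCF10A and MCF10AT1 were compared, as the step from an immortalized breast epithelial line to the same line carrying a mutated HRas. These were 6 of the 18 libraries in the series, with 3 replicates (a, b and c) per line. The libraries were taken by their labels, and the comparison was chosen with earlier results of these data known. Values were deposited for 35933 genes, of which 15697 averaged at least 10 in these 6 libraries and were tested. The series holds RNA sequencing of 3 lines of the MCF10 breast cancer progression model (MCF10A, MCF10AT1 and the xenograft-derived MCF10CA1h), each as a negative CRISPR line and as a line made with a guide against METTL3, the catalytic subunit of the N6-methyladenosine (m6A) RNA methyltransferase. MCF10A is a human mammary epithelial line from benign proliferative tissue that immortalized spontaneously and does not form tumours. MCF10AT1 was made from it by stable integration of a mutated, constitutively active HRas, and is weakly tumorigenic. Both control lines had received an all-in-one Cas9 and control sgRNA construct with mCherry, had been sorted for mCherry, and had been grown from a single cell. The 3 libraries of a group therefore came from 1 clone, and a difference between the lines cannot be told apart from a difference between these 2 clones or from the passages that separate the lines. All cells were grown in DMEM/F12 with horse serum, insulin, hydrocortisone, cholera toxin and epidermal growth factor (EGF).

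RAS proteins are small GTPases that relay signals from growth factor receptors such as the EGF receptor to the RAF, MEK and ERK kinases, and a mutation that blocks GTP hydrolysis holds them in the active state. ERK phosphorylates transcription factors of the ETS and AP-1 families and induces its own brakes, the DUSP phosphatases and Sprouty proteins. Mammary epithelium has an inner luminal layer with simple keratins and an outer basal layer, which makes keratins 5 and 14 and the transcription factor p63 and is anchored to the basement membrane by laminin-332 and its integrin receptors. MCF10A cells in culture resemble the basal layer and can also switch on genes of the cornified envelope, the protein shell that keratinocytes build when they differentiate.

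The unit was the normalized count, the estimated reads of a gene as scaled by the authors with DESeq2. Whether that scaling used only a factor per library or also transcript length was not established. The normalized count is not a value per transcript length, so no gene is compared with another by level. The sums per library were between 21397790 and 31681834. Replicate c of MCF10AT1 stood apart from its group. On the first principal component of the 6 libraries, which held 67.2% of the variance, MCF10A replicates a, b and c scored -33.7, -91.6 and -111.9, and MCF10AT1 replicates a, b and c scored 87.3, 148.7 and 1.3. The highest correlation of MCF10AT1 c with an MCF10A library, 0.926, was above its lowest with its own group, 0.861. MCF10AT1 b had the most genes at 0, 15812, against 9523 to 11285 in the other 5 libraries.

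A gradient with base composition ran through the same libraries. Over 10 equal groups of genes by the GC content of their transcripts, the median log2 fold change (MCF10AT1 minus MCF10A) went from -0.73 at a median GC content of 38.1% to 0.49 at 63.6%. MCF10AT1 b deviated from the mean of the 6 libraries by -0.80 to 0.51 along these groups and MCF10A b in the opposite sense, by 0.48 to -0.37, while MCF10AT1 c stayed between -0.02 and 0.04. By transcript length the median log2 fold change went from 0.55 at a median of 1188 bases to -0.54 at 7716 bases. Of the genes in the group lowest in GC, 0.574% were called higher in MCF10AT1 and 9.11% lower, and in the group highest in GC 9.37% were higher and 2.42% lower. The part of this gradient in the gene lists was looked at by centring each library within groups of genes of like GC content and length. For lists whose median is stated, the median with the centring is given where it changed sign or moved by over 1.5 times. For the other lists it is not given, though in some of them it moved as much.

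**Figure D1:**
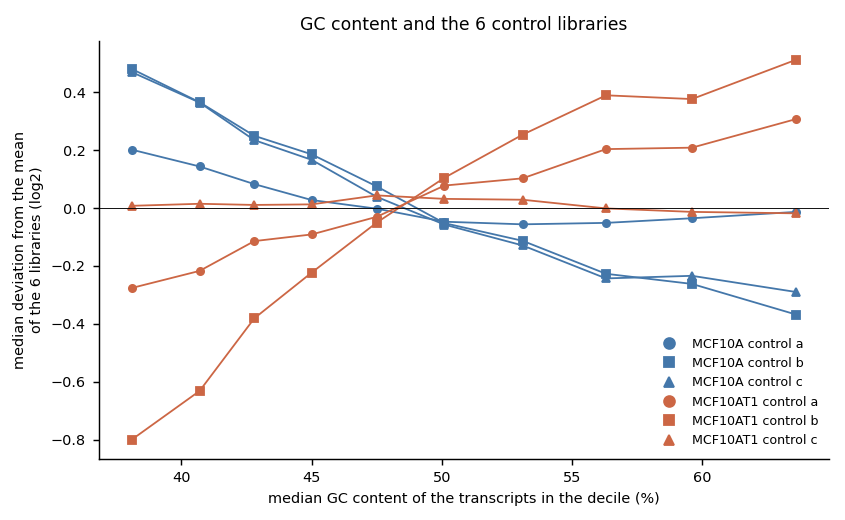
Median deviation of each of the 6 control libraries from the mean of all 6, on the log2 scale (y axis), for 10 equal groups of genes ordered by the GC content of their transcripts (x axis, percent). MCF10A replicates b and c slope down, MCF10AT1 replicates a and b slope up, and MCF10AT1 c is flat.

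Between the control lines 1606 of the 15697 tested genes (10.2%) were differentially expressed by limma with Benjamini-Hochberg adjustment at 0.05, 716 higher in MCF10AT1 (4.56%) and 890 lower (5.67%). Before adjustment, 5402 genes had a p under 0.05. The median size of the difference was 2.04 on the log2 scale among the called genes, 1573 of which were at 1 or more, and 0.72 over all tested genes, and the signed median of all tested genes was -0.015. The libraries of the lines did not overlap for 5911 genes (37.7%), 2876 higher and 3035 lower, and these included all 1606 called genes. The number of calls rested on single libraries. It was 6190 without MCF10AT1 c, but 127 without MCF10AT1 a, 134 without MCF10A b, 159 without MCF10A c, 803 without MCF10AT1 b and 1485 without MCF10A a. Because the libraries of all 1606 genes did not overlap, leaving out 1 library could not turn the direction of any of them. In all 6 fits 95 were called, 22 higher and 73 lower. For each gene, "in 6 of 6" or a lower number gives how many of these fits called it. The size of a rise is given on the log2 scale throughout. Counts of called members in the gene lists below are to be read beside the shares of all tested genes, 4.56% higher and 5.67% lower. A gene near 0 in 1 line passed the filter on the mean through the other line alone.

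A second pair of clones of the same lines allowed the same contrast in other libraries. The MCF10AT1 and MCF10A lines made with the METTL3 guide, 3 libraries each, differed at 9377 of 16077 tested genes (58.3%). Of these, 4743 were higher and 4634 lower in MCF10AT1, and counts of list members in this pair are to be read beside them. Of the 1507 control calls tested there, 971 were called in the same direction and 133 in the opposite one. The 971 were 60.5% of all control calls and 10.4% of the calls in the second pair. The second pair held a gradient of the same direction. Its median log2 fold change went from -1.17 in the group lowest in GC to 0.89 in the highest. By length it went from 0.80 for the shortest transcripts to -0.81 for the longest. The part of this gradient in the shared calls was not tested. For genes higher in control MCF10AT1 the numbers were 398 the same and 75 opposite of 670, and for genes lower they were 573 and 58 of 837. A value in the second pair is called here the value in the METTL3 CRISPR lines, and whether it differed from the control value was not tested.

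HRAS (chr11:532242-537321 of hg38), the gene that was introduced, had normalized counts of 10402, 10303 and 8778 in MCF10A and 12707, 20146 and 12438 in MCF10AT1. Every MCF10AT1 library was above every MCF10A library and the ratio of the means was 1.54, but the log2 fold change of 0.59 (standard error 0.27) was not called (adjusted p = 0.159), and 0.1, the p of the exact two-sided permutation test, is the smallest that 3 libraries against 3 allow. The counts sum all transcripts of the gene and do not separate the introduced from the resident copy. The METTL3 CRISPR lines gave 1.59, which was called. METTL3 itself, the target of the guide in the other lines, measured 752, 686 and 459 in MCF10A and 968, 1016 and 805 in MCF10AT1. Its log2 fold change of 0.58 was not called (adjusted p = 0.178, exact permutation p = 0.1).

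Of 12 tested RAS genes and regulators, 1 rose and 4 fell, with a median log2 fold change of -1.31. NRAS, a close relative of HRAS, measured 1037, 1549 and 1715 in MCF10A and 418, 559 and 715 in MCF10AT1 (log2 fold change -1.35, adjusted p = 0.0384, in 2 of 6). The related GTPases MRAS and RRAS fell (log2 fold changes -2.53 and -1.82). RASA1, which stimulates GTP hydrolysis by RAS, fell (log2 fold change -2.18), and RASAL1, of the same class, rose from 192, 134 and 78.6 to 687, 689 and 433 (log2 fold change 2.21). RRAS2, RASAL2, SOS1 and SOS2 had log2 fold changes between -2.03 and -0.92 with adjusted p from 0.0561 to 0.169, and NF1 had -0.66 (adjusted p = 0.263). The count of 5 was between 0 and 10 with 1 library left out, and the median was -0.50 after centring on GC content and length.

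Of 40 tested MAPK output and feedback genes, which ERK signalling is known to induce, 0 rose and 6 fell in limma (1 and 17 at an unadjusted p under 0.05), with a median of -0.66, and 9 of the 40 had a positive log2 fold change. HMGA2, a chromatin protein of fetal and tumour cells, measured 3728, 4514 and 5703 in MCF10A and 474, 1040.1 and 576 in MCF10AT1 (log2 fold change -2.80, standard error 0.34, adjusted p = 0.00735, in 6 of 6). The ERK phosphatase DUSP7 fell (log2 fold change -2.24, in 5 of 6), and the RAS pathway inhibitor SPRY4, the ETS factor ELK3, PHLDA1 and the urokinase receptor PLAUR fell (log2 fold changes -1.94, -1.93, -1.92 and -1.38). Among the best known members, DUSP6 measured 10738, 9722 and 7809.7 in MCF10A and 2687, 1497 and 6143 in MCF10AT1, which did not pass (log2 fold change -1.68, adjusted p = 0.0611). FOSL1, ETV4, ETV5, CCND1 and MYC had log2 fold changes of -0.53, 0.69, -0.08, -0.19 and 0.57, none of them called. Without 1 library the count of calls was between 1 and 18, and with the centring the median was -1.03.

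In the EGF receptor family 3 ligands fell and 2 receptors rose. HBEGF, a ligand of the EGF receptor, gave 8444, 9201 and 10443 in MCF10A replicates a, b and c and 898, 1017 and 1082 in MCF10AT1. The replicates lay close together and the lines differed 9.36-fold (log2 fold change -3.23, standard error 0.22, adjusted p = 0.00173, in 6 of 6), and the value in the METTL3 CRISPR lines was -3.25. NRG1, a ligand of ERBB3 and ERBB4, and TGFA, a second ligand of the EGF receptor, fell (log2 fold changes -3.13 and -2.09). ERBB3 rose from 335, 373 and 283 to 846, 869.8 and 831 (log2 fold change 1.37), and its partner ERBB2 from 1545, 1584 and 1221 to 3247, 2592 and 2846 (log2 fold change 1.00). EGFR, with 6015, 10394 and 10108 against 3489, 1985 and 7548, overlapped between the lines. These calls were among 16 tested members, whose median of -0.42 became 0.14 with the centring on GC content and length. The count of 5 was between 1 and 8 without 1 library.

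The genes with the largest rises and falls, taken among called genes with a mean of at least 50, were mostly genes near 0 in 1 of the lines. ACMSD, an enzyme that limits synthesis of NAD from tryptophan, measured 0, 2.45 and 1.86 in MCF10A and 210.2, 341 and 139 in MCF10AT1 (log2 fold change 6.65, in 6 of 6). SYT12, a synaptotagmin, rose from 74.7, 29.2 and 16.3 to 1411, 885 and 1242 (in 6 of 6), and FBXO17, a ubiquitin ligase subunit, from 4.75, 2.89 and 2.47 to 111, 118 and 119 (in 6 of 6). All 3 were well apart from MCF10A in every library. CA9, a carbonic anhydrase known as a hypoxia marker, had the largest log2 fold change, 7.02, but its MCF10A replicates spread over 336, 6.84 and 0 and it was called in 2 of 6 (adjusted p = 0.0485). APOC1, PPP1R1B, LINC02688, WIPF1, HBA1, GLS2 and MUC5B rose as well, with log2 fold changes between 4.79 and 5.75.

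Among the falls, HSD17B2, which inactivates oestradiol, had the smallest adjusted p of all genes, 0.00115, with 1129.8, 1398 and 2753 in MCF10A and 9.17, 11.6 and 6.86 in MCF10AT1. ZBED2, a transcriptional repressor in keratinocytes, went from 994, 2191 and 3426 to 7.49, 12.3 and 5.13, and the fatty acid transporter SLC27A6 from 167, 245 and 569 to 0, 0 and 0.93. SLCO1B3, an organic anion transporter, GJA1, the gap junction protein connexin 43, and CDH4, R-cadherin, fell (log2 fold changes -7.09, -6.93 and -7.22). These 6 genes were called in all 6 fits. The METTL3 CRISPR lines gave -4.36 for HSD17B2, -8.65 for ZBED2 and -7.45 for SLCO1B3, and the opposite sign for CDH4 (6.84) and GJA1 (3.66). LCE3D, PAPPA2, IL1RL1 and CRCT1 also fell, with log2 fold changes between -7.52 and -6.66. The antisense RNA CHMP1B-AS1 was called lower and is listed at 0 in all 3 MCF10AT1 libraries, against 146, 91.3 and 85.6 in MCF10A.

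**Figure D2:**
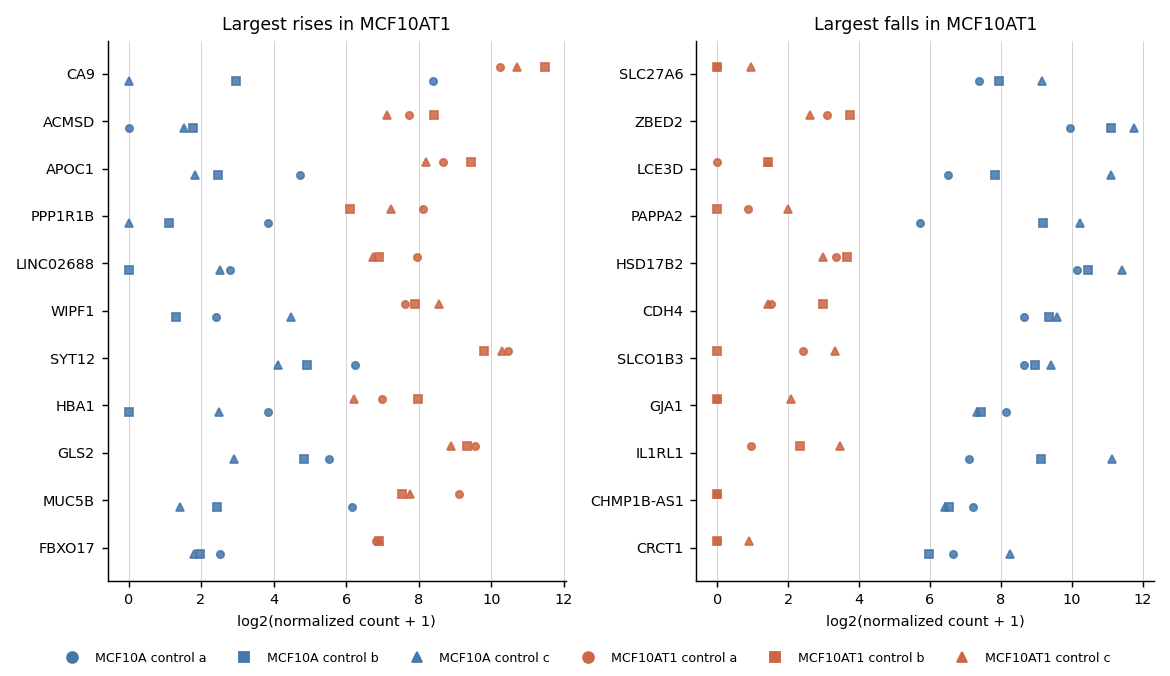
The log2 of the normalized count plus 1 in each of the 6 control libraries (x axis) for 11 genes among the largest rises (left) and 11 among the largest falls (right) in MCF10AT1. Each point is 1 library, blue for MCF10A and orange for MCF10AT1, with a circle, square and triangle for replicates a, b and c. The colours do not overlap in any row, and MCF10A replicate a is the highest MCF10A library for CA9 at 336.

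Many genes of the cornified envelope were lower in MCF10AT1. Of 41 genes with values 26 were tested. Among these, 0 rose and 13 fell in limma, against 5.67% of all genes, and 2 and 17 reached an unadjusted p under 0.05. The median log2 fold change was -1.75. The small proline-rich proteins, which are cross-linked into the envelope, lie side by side on chromosome 1. SPRR2D measured 1859.8, 1235 and 928 in MCF10A and 46.2, 94.2 and 61.2 in MCF10AT1 (log2 fold change -4.30, standard error 0.39, adjusted p = 0.00339, in 6 of 6). SPRR1B went from 1894, 1686 and 1099.5 to 86.3, 193 and 60.3 (in 6 of 6), and SPRR2A from 775, 513 and 421 to 14.03, 33.01 and 18.1 (in 6 of 6). Members of this family are close in sequence, so the sharing of reads among SPRR2A, SPRR2D and SPRR2E is uncertain, but all 3 fell. The neighbours SPRR3, SPRR1B, SPRR2D, SPRR2A and SPRR2E, between positions 153001747 and 153106184 of chromosome 1 (hg38), were consecutive among the tested genes and all called, with a median log2 fold change of -4.30.

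Further members lay outside this run, involucrin among them on chromosome 1 as well. A2ML1, a protease inhibitor of the epidermis, gave 2942, 3482 and 2084 against 125, 133 and 225 (log2 fold change -4.15, in 6 of 6). Involucrin (IVL), the scaffold of the envelope, fell from 341, 529 and 244 to 93.7, 100.5 and 116 (log2 fold change -1.77, in 2 of 6). LCE3D and CRCT1 were near 0 in every MCF10AT1 library, so they passed the filter on the mean through MCF10A alone. The same held for SPRR3, SPRR2E and SBSN, a further member that fell, with MCF10AT1 means of 2.53, 4.08 and 5.28. The number of falls among tested members partly follows from this filter. Transglutaminase 1 (TGM1), which cross-links the envelope, was not called (log2 fold change 0.57, adjusted p = 0.489). The METTL3 CRISPR lines had 15 of 23 tested members lower and 3 higher. With 1 library left out, between 6 and 21 members were called.

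Promoters are shown for genes of this group, and then for 3 other genes, because they carry a sequence known to bind AP-1, the FOS and JUN dimer that acts downstream of ERK. Each run is the 250 bases before the RefSeq start of the gene (GRCh38.p14), written 5′ to 3′ on the strand of the gene, with every match to TGANTCA in capitals. The motif reads the same on both strands. SPRR3 is at chr1:153001499-153001748, SPRR1A at chr1:152983831-152984080, SPRR1B at chr1:153030953-153031202, SPRR2A at chr1:153057513-153057762 on the minus strand, and IVL at chr1:152908296-152908545.
SPRR3: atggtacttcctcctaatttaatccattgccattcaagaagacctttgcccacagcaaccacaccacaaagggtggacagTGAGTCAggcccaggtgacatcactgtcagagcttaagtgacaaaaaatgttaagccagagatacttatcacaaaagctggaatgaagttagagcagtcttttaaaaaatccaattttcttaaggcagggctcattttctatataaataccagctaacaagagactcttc
SPRR1A: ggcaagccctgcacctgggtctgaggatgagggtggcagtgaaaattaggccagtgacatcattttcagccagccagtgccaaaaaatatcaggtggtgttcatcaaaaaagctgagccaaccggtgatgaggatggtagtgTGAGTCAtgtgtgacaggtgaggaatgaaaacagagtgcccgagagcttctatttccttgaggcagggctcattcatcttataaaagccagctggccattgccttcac
SPRR1B: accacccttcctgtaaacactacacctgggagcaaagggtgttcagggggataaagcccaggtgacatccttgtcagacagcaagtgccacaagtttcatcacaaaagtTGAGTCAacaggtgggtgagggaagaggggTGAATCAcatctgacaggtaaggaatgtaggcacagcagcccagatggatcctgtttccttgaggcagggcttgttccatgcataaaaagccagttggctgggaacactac
SPRR2A: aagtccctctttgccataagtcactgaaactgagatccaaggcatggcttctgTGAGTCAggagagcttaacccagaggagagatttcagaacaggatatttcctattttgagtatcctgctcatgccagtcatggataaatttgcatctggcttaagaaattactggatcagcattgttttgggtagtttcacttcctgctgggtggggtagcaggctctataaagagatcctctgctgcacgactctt
IVL: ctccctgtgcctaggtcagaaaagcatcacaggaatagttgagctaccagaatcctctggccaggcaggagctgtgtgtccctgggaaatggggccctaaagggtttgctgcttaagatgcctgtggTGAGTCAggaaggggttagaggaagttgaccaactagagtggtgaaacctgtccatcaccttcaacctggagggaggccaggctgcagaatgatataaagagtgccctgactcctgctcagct

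The match began 170 bases before the start in SPRR3, 108 in SPRR1A, 197 in SPRR2A and 123 in IVL, and SPRR1B held 2, at 141 and 111. SPRR1A was not called (log2 fold change -3.07, adjusted p = 0.0833). Of 16 tested envelope genes with a promoter in the table, 9 held a match, and of 9 that fell 7 did. A match within 250 bases was held by 6.48% of the 11131 tested genes with a promoter, by 13.5% of the genes that fell (91 of 675), by 8.24% of those that rose (42 of 510) and by 5.91% of those not called (588 of 9946). The median GC content of these promoters was 63.2% for genes that fell, 65.3% for genes that rose and 64.4% for those not called. In all 27305 genes of the promoter table the share was 8.06%. A match is a description of letters, and no binding was measured in these cells.

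Matches were also held by LAMA3, MMP10 and CA9, shown for a fall in the basement membrane, a fall in a protease and a rise. LAMA3 is at chr18:23872770-23873019 with matches that begin 125 and 69 bases before the start, MMP10 at chr11:102780629-102780878 on the minus strand with 1 at 67, and CA9 at chr9:35673678-35673927 with 1 at 77.
LAMA3: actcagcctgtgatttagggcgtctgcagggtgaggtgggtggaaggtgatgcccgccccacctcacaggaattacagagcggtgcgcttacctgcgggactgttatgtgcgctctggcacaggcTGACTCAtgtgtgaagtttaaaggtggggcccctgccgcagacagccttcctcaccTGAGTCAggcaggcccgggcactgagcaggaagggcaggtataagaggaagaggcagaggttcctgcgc
MMP10: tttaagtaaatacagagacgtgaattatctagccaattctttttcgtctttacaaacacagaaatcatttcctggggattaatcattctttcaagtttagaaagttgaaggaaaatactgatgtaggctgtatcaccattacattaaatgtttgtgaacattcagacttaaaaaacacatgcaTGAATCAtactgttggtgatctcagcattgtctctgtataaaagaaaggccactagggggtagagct
CA9: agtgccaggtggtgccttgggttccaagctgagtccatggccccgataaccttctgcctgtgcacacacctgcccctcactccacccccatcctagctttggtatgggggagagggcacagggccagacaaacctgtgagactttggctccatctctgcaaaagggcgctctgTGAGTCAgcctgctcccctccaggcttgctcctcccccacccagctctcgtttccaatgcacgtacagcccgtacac

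The basal keratins KRT14 and KRT5 fell and the luminal keratin KRT8 rose. KRT14, which pairs with keratin 5 in basal cells, gave 2278, 2322 and 2699 in MCF10A and 99.2, 77.1 and 43.01 in MCF10AT1. No MCF10AT1 library came near an MCF10A library, and the lines differed 34.6-fold (log2 fold change -5.11, standard error 0.35, adjusted p = 0.00173, in 6 of 6). KRT5 fell less, from 101392, 103397 and 98452 to 48735, 47281 and 36863 (log2 fold change -1.20, in 2 of 6). The wound keratin KRT6A went from 129757, 221176 and 260305 to 29095, 34067 and 33988 (in 6 of 6), and its neighbours KRT6B and KRT6C, near-identical to it in sequence, fell (log2 fold changes -1.82 and -2.83). KRT80, a keratin of many epithelia, was the exception and rose from 127, 69.4 and 62.8 to 1283, 1443 and 1328 (log2 fold change 4.02, in 6 of 6). KRT17, KRT16 and KRT15 were not called, with log2 fold changes of -1.11, -0.84 and 1.01, and neither were KRT81, KRT86 and KRT23 (1.74, 1.79 and -0.01). In all 1 of 12 tested basal and stress keratins rose and 5 fell (median -0.98, and -1.69 with the centring), and between 3 and 10 were called without 1 library.

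KRT8, a simple keratin of luminal cells, rose from 8837, 4079.6 and 2867 to 23432, 22713 and 14037 (log2 fold change 2.06, in 2 of 6). KRT18, KRT7 and KRT19 had log2 fold changes of 1.27, 1.24 and 2.65 and none passed (adjusted p from 0.0545 to 0.122). The lines did not overlap for KRT18 and KRT19 and overlapped for KRT7. The basal identity factor TP63 fell from 1570.2, 2786 and 3396 to 216, 111 and 745 (log2 fold change -3.23, in 2 of 6).

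The labelled cell type was checked against markers. Basal markers were strong in both lines, with sums of normalized counts over 9 genes of 316432 to 607894 in MCF10A and 100102 to 114605 in MCF10AT1, and 6 of the 9 fell. Luminal markers summed to 16816 to 26555 in MCF10A and 35201 to 81652 in MCF10AT1, with 1 of 6 tested members higher, while PGR was at 0 in all 6 libraries and ESR1 reached at most 26.6. Markers of other cell types were not all near 0. The 9 fibroblast markers in the table summed to 1815 to 2193 in MCF10A and 468 to 738 in MCF10AT1, and 3 of 5 tested fell, DCN from 1745, 1181 and 753 to 538, 369.5 and 264, FAP from 206, 494 and 699 to 80.8, 42.3 and 62.7 and POSTN. LUM was at 0 in all 6 libraries and COL1A2 and COL3A1 reached at most 1.09 and 2.31. The 6 haematopoietic markers summed to 754 to 2114 in MCF10A and 803 to 1529 in MCF10AT1. Nearly all of this was CD68, a lysosomal protein, which fell from 818, 595 and 2006 to 145, 153 and 258, and CD14, a co-receptor for bacterial lipopolysaccharide, which rose from 270.5, 149.7 and 106 to 1378, 799 and 517, while the leukocyte antigen PTPRC reached at most 5.31. The 6 endothelial markers summed to 56.1 to 237 in MCF10A and 235 to 867 in MCF10AT1, and in MCF10AT1 most of it was PECAM1, which was not called (3.13, adjusted p = 0.0602), while CDH5 and VWF reached at most 5.96 and 9.85. The part of these markers in other results was not tested. Whether a shift between cells of different states within a line or a change within each cell gives such values cannot be told apart in RNA of whole cultures.

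Genes that anchor the basal cell to its matrix were lower too. LAMA3 and LAMB3 encode chains of laminin-332, which anchors epithelium. LAMA3 gave 42684, 59282 and 130911 in MCF10A and 6399.8, 9629.7 and 4614 in MCF10AT1, with a wide spread in MCF10A and no overlap (log2 fold change -3.40, standard error 0.46, adjusted p = 0.00904, in 5 of 6). LAMB3 went from 75572, 76644 and 167626 to 10632, 16915 and 14544 (log2 fold change -2.85, in 5 of 6). Their receptor subunits ITGA6, ITGA3 and ITGB1 fell (log2 fold changes -3.05, -1.74 and -2.21). ITGB4, the partner of ITGA6 in the hemidesmosome, was not called (log2 fold change -1.31, adjusted p = 0.0583). The hemidesmosome linkers PLEC and DST and its collagen COL17A1 fell (log2 fold changes -1.64, -1.75 and -1.77).

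The collagen receptor subunit ITGA2 fell (log2 fold change -3.86), and the fibronectin receptor subunit ITGA5 from 11171, 11375 and 19232 to 1970.5, 2433 and 2364 (log2 fold change -2.58, in 6 of 6). LAMB2, a chain of other laminins, rose by 1.68 on the log2 scale (in 2 of 6). Over 27 tested integrin, laminin and hemidesmosome genes 1 rose and 11 fell, with a median of -1.41, and 1 to 22 were called without 1 library. The METTL3 CRISPR lines had 12 lower and 11 higher. SDC1 (syndecan-1), a matrix receptor of epithelia, and the cytoplasmic actin ACTG1, both among the called genes with the largest normalized counts, fell (log2 fold changes -3.12 and -1.05).

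Junction genes between cells did not move as 1 group. The desmosome cadherin DSG3 fell from 10709, 15590.2 and 12983 to 3494, 1776 and 6641 (log2 fold change -1.91, in 1 of 6) and so did the plaque protein PKP2 (log2 fold change -1.58). All 8 tested desmosome genes had negative log2 fold changes (median -1.49, and -0.79 with the centring), but DSP, DSG2, DSC2, DSC3, PERP and PKP3 did not pass, with adjusted p between 0.0542 and 0.412. Desmosomal plakoglobin (JUP) fell (log2 fold change -0.93). In contrast, of 36 tested epithelial junction genes 7 rose and 1, JUP, fell, with a median of 0.29. EPCAM, an adhesion protein of simple epithelia, rose from 965, 502 and 418 to 4291, 3494 and 3572 (log2 fold change 2.68, standard error 0.34, adjusted p = 0.00814, in 5 of 6).

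ELF3, an epithelial ETS factor, went from 1337, 448 and 212 to 6412, 2259.5 and 3811 (log2 fold change 2.92, in 2 of 6). The tight junction proteins TJP3, CGN and CLDN7 rose by 4.18, 2.04 and 1.14, the polarity protein LLGL2 by 1.33 and the membrane protease ST14 by 0.97. E-cadherin (CDH1) measured 4836, 8321 and 7843 in MCF10A and 3475, 2105 and 6138 in MCF10AT1, which overlapped (log2 fold change -0.94, adjusted p = 0.152). Without 1 library between 0 and 18 junction genes and between 0 and 7 desmosome genes were called. Of the 36 junction genes 32 were lower and 1 was higher in the METTL3 CRISPR lines, where 58.3% of all tested genes were called.

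Mesenchymal genes split, with 6 higher and 14 lower of 40 tested and a median of -0.40. The transcription factor SNAI2, which is also high in basal mammary cells, gave 3933, 4640.1 and 7459 in MCF10A and 469, 339 and 865 in MCF10AT1 (log2 fold change -3.31, standard error 0.40, adjusted p = 0.00735, in 6 of 6). The zinc finger repressors ZEB1 and ZEB2 fell from 83.2, 121 and 179.8 to 1.36, 1.28 and 41.04 and from 173, 183 and 177 to 19.9, 2.04 and 45.7, in 1 of 6 and 2 of 6 fits. The intermediate filament vimentin (VIM) fell from 14346, 8203 and 14966 to 3055, 4639.8 and 4069 (log2 fold change -1.64, in 3 of 6), and fibronectin (FN1) from 479, 227 and 386 to 70.5, 65.1 and 81.9 (log2 fold change -2.25, in 4 of 6). Every MCF10AT1 library was below every MCF10A library for both.

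WNT5A, POSTN, NT5E, FAP and SERPINE2 fell (log2 fold changes -4.41, -4.33, -3.20, -2.77 and -2.50), and DCN, LOX and IGFBP7 (-1.63, -1.51 and -1.64). Members that rose include CCN2, a YAP and TGF-beta target, from 407, 619.5 and 188 to 7638, 1809 and 2717, and smooth muscle actin (ACTA2), from 226, 99.05 and 132 to 1425, 1118 and 807 (log2 fold changes 3.21 and 2.91, in 3 of 6 and 5 of 6). S100A4 rose from 653, 357 and 227 to 2539, 1357 and 994, and TNC and PCOLCE rose by 1.57 and 1.64. Between 4 and 29 members were called without 1 library. The METTL3 CRISPR lines had 24 higher and 6 lower, with FN1 at 8.77 and VIM at 3.37.

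**Figure D3:**
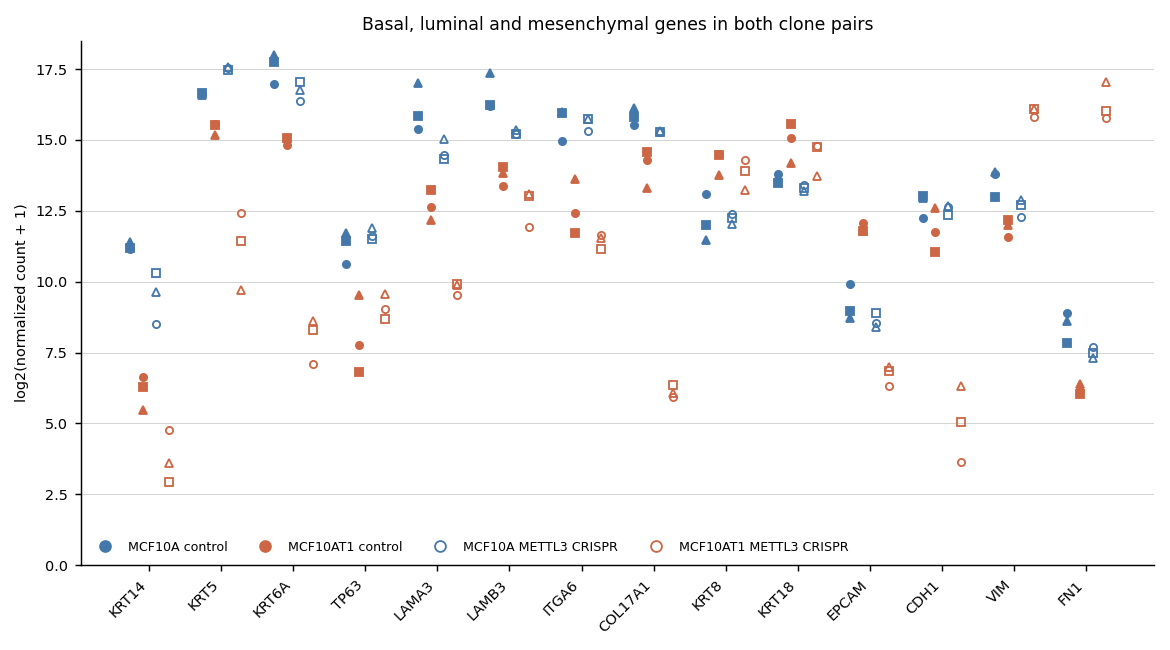
The log2 of the normalized count plus 1 (y axis) of 14 basal, luminal and mesenchymal genes in the 12 libraries of both clone pairs, filled for the control lines and open for the METTL3 CRISPR lines, blue for MCF10A and orange for MCF10AT1, with a circle, square and triangle for replicates a, b and c. KRT14, TP63, LAMA3 and LAMB3 are lower in MCF10AT1 in both pairs and KRT8 is higher, while EPCAM, VIM and FN1 differ in opposite directions and CDH1 is near the bottom in the METTL3 CRISPR MCF10AT1 line alone.

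Of 26 tested matrix proteases and inhibitors 0 rose and 11 fell (4 and 15 at an unadjusted p under 0.05), with a median of -1.31. The collagenase MMP1 was at 0 in all 3 MCF10AT1 libraries and at 9.96, 89.3 and 542 in MCF10A (in 2 of 6), and stromelysin-2 (MMP10) was at 0 there against 18.6, 59.1 and 249 (in 3 of 6). The file holds no read counts, so these are listed as 0 with no fold. SERPINB2, an inhibitor of urokinase, went from 2094, 3648 and 1445 to 19.4, 21.2 and 70.4 (log2 fold change -6.13, in 6 of 6), and TIMP3, an inhibitor of metalloproteinases, from 3778, 7580.1 and 11282 to 557, 827 and 523 (log2 fold change -3.46, in 6 of 6). MMP28, ADAMTS6, ADAMTS1 and urokinase (PLAU) fell (log2 fold changes -2.57, -4.51, -2.19 and -1.16). Between 3 and 16 members were called without 1 library.

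Of 19 tested collagen chain genes 4 rose and 3 fell (median -0.83, and -0.50 with the centring). The basement membrane chains COL4A3 and COL4A4 rose from 11.1, 12.4 and 15.7 to 63.4, 42.4 and 152 and from 12.1, 15.2 and 5.76 to 68.4, 50.6 and 96.5, while COL4A1 fell from 567, 614 and 798 to 114, 103 and 253. COL18A1 and COL9A3 rose by 3.55 and 3.94, and COL6A3 and COL17A1 fell (log2 fold changes -3.74 and -1.77). None of these calls was made in all 6 fits, and the count was between 0 and 13.

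Among TGF-beta family genes 3 rose and 8 fell of 31 tested, with 20 not called and a median of -1.02. LTBP1, which stores latent TGF-beta in the matrix, went from 8465, 15283 and 11071 to 348, 469 and 1591 (log2 fold change -4.14, in 6 of 6). Its relatives LTBP3 and LTBP2 rose by 2.15 and 1.35. The activin subunit INHBA and its antagonist FST fell (log2 fold changes -4.25 and -1.66). The ligands BMP2 and BMP6 fell (log2 fold changes -2.45 and -3.92), and ID1 and BAMBI, targets of these pathways, fell too (-1.37 and -1.16). CCN2, described above, is also in this list, and TGFB1 was not called (0.70). Between 2 and 22 members were called without 1 library.

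Adhesion molecules of the cadherin, CEACAM and immunoglobulin families gave 2 higher and 9 lower of 26 tested, with a median of -1.03. CDH4 measured 402, 654 and 760.3 in MCF10A and 1.84, 6.96 and 1.68 in MCF10AT1 (log2 fold change -7.22, in 6 of 6). CEACAM6 went from 638, 686 and 781 to 18.8, 53.4 and 52.2 (in 6 of 6), and CEACAM1, CEACAM5 and CEACAM19 fell (log2 fold changes -3.08, -5.36 and -1.13). CDH13, CDH16, CADM1 and NECTIN1 fell (log2 fold changes -3.84, -4.38, -4.52 and -1.64). The neural adhesion molecule L1CAM rose from 77.4, 74.7 and 117 to 421, 549 and 681 (log2 fold change 2.61, in 5 of 6), and CDH24 rose by 1.93. Between 2 and 15 members were called without 1 library.

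In the interleukin-1 family 6 of 9 tested members were called, 1 higher and 5 lower, with a median of -2.56. IL1A, an alarmin stored in epithelial cells, gave 3337, 4236 and 9438 in MCF10A and 80.5, 54.6 and 167 in MCF10AT1. The highest MCF10AT1 library was far below the lowest of MCF10A (log2 fold change -5.81, standard error 0.52, adjusted p = 0.00339, in 6 of 6), and the METTL3 CRISPR lines gave -6.71. IL1B went from 902, 1418 and 3392 to 66.5, 48.2 and 119.8 (log2 fold change -4.47, in 6 of 6), and the receptor antagonist IL1RN from 3599.5, 2772 and 1839 to 289, 686 and 451. The alarmin IL33 and IL1RL1, which is its receptor, fell (log2 fold changes -5.47 and -6.87). The inhibitory receptor SIGIRR rose from 88.5, 36.5 and 38.7 to 691, 764 and 356 (log2 fold change 3.49, in 4 of 6). IL18, IL1R1 and IL1RAP were not called (0.34, -0.22 and -1.76). Between 2 and 7 members were called without 1 library.

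Of 13 tested chemokines and colony-stimulating factors 1 rose and 4 fell, while the median of all 13 was 0.54, which was 0.10 with the centring and negative in 2 of the alternative settings. CCL20 gave 906, 1017 and 855 in MCF10A and 98.9, 121 and 104 in MCF10AT1, with little spread in either (log2 fold change -3.09, standard error 0.26, adjusted p = 0.00278, in 6 of 6). CXCL3, CXCL8 and CXCL1, neighbours on chromosome 4, fell (log2 fold changes -4.08, -2.31 and -1.73). With RASSF6 (log2 fold change -3.66) they formed a run between 73571550 and 74038807 with a median of -2.99. CXCL16 rose from 183, 125 and 119.6 to 529, 604 and 474. IL24, CXCL2, IL6, LIF, CSF1, IL11, CX3CL1 and CCL28 were not called, with log2 fold changes between -4.26 and 1.41.

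Of 18 tested NF-kB factors and feedback genes, among them brakes that NF-kB induces on itself, 1 rose and 5 fell (median -0.73). TNFAIP3, also called A20, went from 2033, 2953 and 2140 to 194, 16.3 and 366 (log2 fold change -4.45, in 2 of 6), and NFKBIA, the inhibitor of NF-kB, from 3158, 4008 and 2602 to 1315, 1248 and 1382 (log2 fold change -1.29, in 3 of 6). BIRC3, BIRC2 and CYLD fell (log2 fold changes -1.76, -1.47 and -1.68), and TNFAIP2 rose by 1.38. The NF-kB subunit NFKB2 was not called (0.38). Between 0 and 11 were called without 1 library.

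Type I interferon response genes gave 2 higher and 10 lower of 54 tested, with a median of -0.99. BST2 (tetherin), which holds virions at the cell surface, went from 1077, 256 and 568 to 52.3, 20.1 and 27.8 (log2 fold change -4.08, in 5 of 6), and SAMD9L, an antiviral factor, from 125, 77.5 and 125 to 5.78, 4.68 and 7.41 (log2 fold change -3.97, in 6 of 6). DDX60, DDX60L, SAMD9 and the sensor IFIH1 fell (log2 fold changes -4.07, -2.70, -2.70 and -2.20), and OAS1, OAS2, OAS3 and OASL (-1.49 to -2.98). IFITM2 and IFITM3, which block virus entry, rose by 2.51 and 2.50.

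Many of the classic members varied within MCF10A. IFI6 measured 1678, 98.3 and 1639.7 in MCF10A and 74.5, 204 and 102 in MCF10AT1, and IFI27 1301, 82.99 and 1388 and 121, 168 and 152, and MCF10A b lay among or below the MCF10AT1 libraries. Neither was called (adjusted p = 0.138 and 0.211), and ISG15, MX1 and IFIT1 were not called either (log2 fold changes -1.20, -1.46 and -1.90). The call count was 8 without MCF10A b, 1 without MCF10A c and 21 without MCF10AT1 c, and with the centring the median was -0.46. Of 52 tested in the METTL3 CRISPR lines 23 were higher and 9 lower.

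Of 56 tested mitosis genes 53 had a positive log2 fold change and the median was 2.05, but 1 rose and 0 fell at the threshold, with 32 and 1 at an unadjusted p under 0.05. AURKA, a kinase of the spindle poles, was that gene, from 439, 179 and 95.7 to 1261, 922 and 737 (log2 fold change 2.27, in 2 of 6). The proliferation marker MKI67 gave 1144, 228 and 40.2 in MCF10A and 2324, 3187 and 2393 in MCF10AT1 (log2 fold change 3.56, adjusted p = 0.0621). In ratio, the 3 MCF10A libraries spread more widely than MCF10A a stood apart from any MCF10AT1 library, and the same held for CCNB1, with 935, 229 and 74.8 and 2441, 2422 and 1371. Without MCF10A a 34 mitosis genes were called, without MCF10AT1 c 18, and without any of the other 4 libraries 0. Of 40 DNA replication genes 39 had a positive log2 fold change (median 1.13) and 2 rose, the sliding clamp PCNA by 1.65 and the helicase subunit MCM7 by 1.55. E2F1, a transcription factor of S phase entry, rose from 159, 139 and 27.99 to 828, 1238 and 431 (in 2 of 6).

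All 78 cytosolic ribosomal protein genes had a positive log2 fold change, with a median of 1.00, and 47 reached an unadjusted p under 0.05, but 2 passed, RPS29 with 1.82 and RPS21 with 1.72. RPLP0 gave 96217, 72536 and 78083 in MCF10A and 197139.7, 221058 and 99323 in MCF10AT1, where replicate c lay just above MCF10A. Without MCF10AT1 c all 78 were called, and without any other library 0 or 1. The METTL3 CRISPR lines had 76 of 78 higher. These are short transcripts, and with the centring on GC content and length the median was 0.71 and 2 were called.

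Of 28 tested oxidative stress and NRF2 target genes 7 rose and 0 fell (10 and 3 at an unadjusted p under 0.05), with a median of 0.63. NQO1, a quinone reductase, went from 1599, 1233 and 961 to 2985, 4599 and 2863 (log2 fold change 1.46, in 2 of 6). The aldo-keto reductases AKR1C1, AKR1C2 and AKR1C3, neighbours of similar sequence on chromosome 10, rose by 1.42, 1.38 and 1.30. The ferritin chain FTL and the aldehyde dehydrogenase ALDH3A1 rose by 1.61 and 2.26. HMOX1 and GCLM were not called (0.36 and 0.15). No call of this list was made without MCF10A b, MCF10A c or MCF10AT1 a, and 16 were made without MCF10AT1 c. With the centring 3 were called and the median was 0.49. In the METTL3 CRISPR lines 18 of 28 were higher and 4 lower.

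Glycolysis and hypoxia response genes moved both ways, with 3 higher and 5 lower of 43 tested and a median of 0.10. CA12, a membrane carbonic anhydrase, went from 7873, 14403 and 15357 to 174, 139.6 and 536 (log2 fold change -5.67, in 6 of 6), opposite to CA9. The glucose transporters SLC2A3 and SLC2A1 fell from 813, 907 and 885 to 4.12, 37.6 and 62.7 and from 6241, 6713 and 7529 to 1718, 1927 and 2525, and NDRG1 and ADM fell (log2 fold changes -3.56 and -1.71). ENO2, an enolase of neurons and tumours, rose from 23.9, 15.7 and 12.4 to 196, 338 and 257 (log2 fold change 3.86, in 6 of 6), and STC1 rose by 2.26. VEGFA and LDHA were not called (-0.52 and 0.26). Between 3 and 22 members were called without 1 library, and the sign of the median changed in 3 of the alternative settings.

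Of 33 tested p53 family genes and p53 targets 4 rose and 3 fell (median -0.15, which became 0.06 with the centring). The pro-apoptotic BAX rose from 2227, 1571 and 1525 to 8709, 7789.7 and 4504 and BBC3, FDXR and AEN rose by 1.29, 1.93 and 0.86. GADD45A fell from 3494, 3305 and 2587 to 914, 701 and 807 (in 5 of 6), and PMAIP1 and TP63 fell (log2 fold changes -2.60 and -3.23). The cell cycle inhibitor CDKN1A was not called (-0.24, adjusted p = 0.506). Between 0 and 12 members were called without 1 library.

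**Figure D4:**
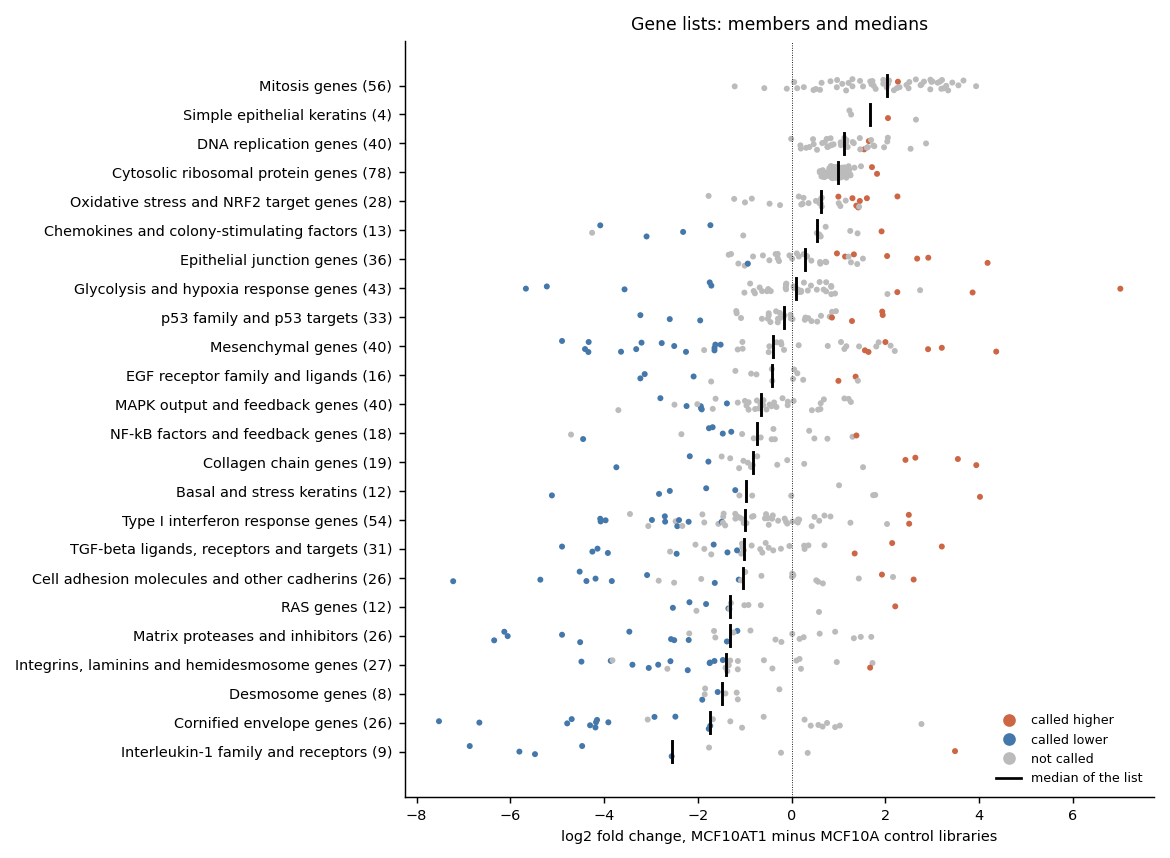
Log2 fold change of MCF10AT1 over MCF10A in the control libraries (x axis) for every tested member of 24 gene lists, ordered by their medians (black bars), with the number of tested members in brackets. Points are genes, orange where called higher, blue where called lower and grey where not called. The mitosis, replication and ribosomal lists sit to the right but are nearly all grey, and the mesenchymal and cornified envelope lists have the most blue points, 14 and 13.

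Genes of 4 chromosomes were higher in MCF10AT1 along nearly their whole length. After the centring on GC content and length, which was added after the values had been seen, the median log2 fold change was 0.478 over 779 genes of chromosome 7, 0.462 over 643 of chromosome 10, 0.527 over 512 of chromosome 14 and 0.536 over 406 of chromosome 20. The medians of the other 19 chromosomes were between -0.157 and 0.053. The 4 were picked for the highest centred medians in these same libraries, so the windows and shares below partly follow from that choice. On the 4 chromosomes each MCF10AT1 library lay above each MCF10A library. For chromosome 14 the median deviations were -0.242, -0.227 and -0.306 in MCF10A and 0.267, 0.375 and 0.195 in MCF10AT1, and for chromosome 20 they were -0.252, -0.276 and -0.257 against 0.280, 0.338 and 0.191. MCF10AT1 c, which stood apart in other respects, was with its group here. Without the centring the medians were 0.429, 0.237, 0.384 and 0.557 for chromosomes 7, 10, 14 and 20. Those of the other 19 were then between -0.623 (chromosome 18) and 0.238 (chromosome 19), so chromosome 10 lay within their range.

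In windows of 10 Mb with at least 15 genes, 42 of 45 on these chromosomes had all MCF10AT1 libraries above all MCF10A libraries and 0 had them below. On the other chromosomes 21 of 238 windows were above and 61 below. The 4 chromosomes held 14.9% of the tested genes, 35.8% of the genes that rose (256, or 10.9% of those tested there) and 7.42% of those that fell (66, or 2.82%). Elsewhere 3.45% rose and 6.17% fell. In the METTL3 CRISPR lines the medians were 0.168 for chromosome 7, 0.478 for chromosome 10, 0.192 for chromosome 14 and 0.209 for chromosome 20, within the range of -0.366 to 0.385 over the other chromosomes but for chromosome 10. DNA copy number was not measured here, and its part in these values was not tested. Called genes named above lay on these chromosomes in both directions. On chromosome 20 PCNA, AURKA, E2F1, COL9A3 and RPS21 were higher and CDH4, BMP2 and ID1 lower, and on chromosome 7 MCM7 and PCOLCE were higher and INHBA, SAMD9 and SAMD9L lower. On chromosome 10 ACTA2, AKR1C1, AKR1C2 and AKR1C3 were higher and BAMBI, COL17A1, ITGB1, PLAU, VIM and ZEB1 lower, and on chromosome 14 CDH24, LTBP2, RPS29 and TNFAIP2 were higher and NFKBIA lower.

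**Figure D5:**
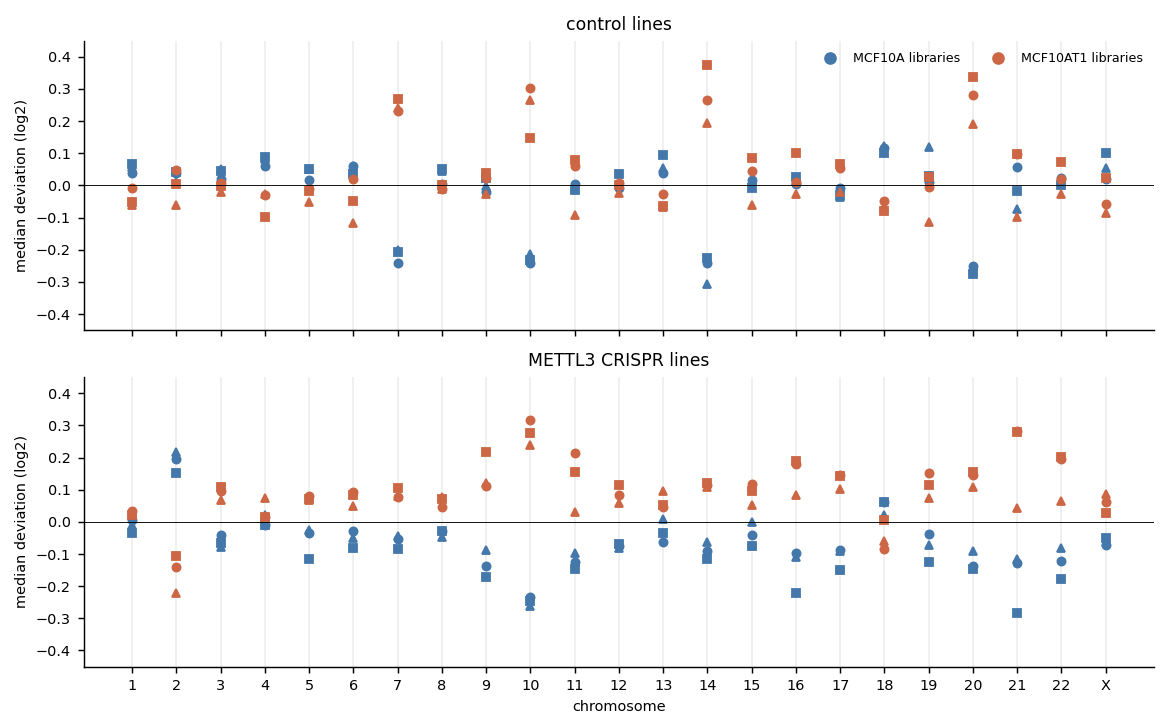
Median deviation of each library from the mean of its 6 libraries, on the log2 scale after centring on GC content and transcript length (y axis), over the tested genes of each chromosome (x axis), for the control lines (top) and the METTL3 CRISPR lines (bottom). Blue points are MCF10A and orange points MCF10AT1, with a circle, square and triangle for replicates a, b and c. In the control lines the colours are far apart on chromosomes 7, 10, 14 and 20.

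Some called genes were also consecutive among the tested genes. On chromosome 20 DBNDD2, PIGT, WFDC2, WFDC3 and DNTTIP1 were higher between 45406057 and 45811427, with a median of 2.32. TGIF2, the readthrough gene TGIF2-RAB5IF, RAB5IF and NDRG3 were higher between 36573488 and 36746090, with a median of 1.44, and the readthrough gene shares exons with its neighbours. On chromosome 12 KRT6B, KRT6C, KRT6A and KRT5 fell between 52446651 and 52520530, with a median of -2.21, and SLC15A4 and 4 non-coding genes without symbols fell between 127130005 and 128823958, with a median of -4.54.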

How the data were processed

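Reads of the 18 libraries, sequenced from both ends, were assigned by the authors to the hg38 transcriptome with Kallisto 0.46.1 and combined per gene with tximport, and the counts were then scaled with DESeq2 1.26.0 (R 4.1.1). The methods text describes stranded total RNA depleted of ribosomal RNA, and its heading and the labels name polyA RNA, which was not resolved. The deposited normalized counts are a signal and not read counts. Between 15.3% and 38.9% of a library's values under 10 times its most frequent low value lay within 0.02 of a whole multiple of that value, so reads were not recovered, the number behind a value is not known and no counting error can be given. Rows without a gene identifier (24646) were not used.

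The 6 control libraries were fitted alone with limma 3.58.1 (R 4.3.3, intensity trend) as MCF10AT1 minus MCF10A on log2(normalized count + 1), keeping genes that averaged at least 10. This scale understates fold changes of low genes. Adjusted p-values are two-sided limma values with Benjamini-Hochberg adjustment over all tested genes, called under 0.05. The METTL3 CRISPR libraries were fitted likewise. The model was tested on simulated data. No source says that libraries of a group came from separate cultures, so p measures a spread that may be technical. Python 3.11.15, pandas 2.3.3, NumPy 2.4.6 and SciPy 1.17.1 gave other values. Promoters came from RefSeq tables (GRCh38.p14). GC content was taken over all annotated transcripts of a gene together, and length from the longest of them.

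The comparison, lists and named genes were chosen with earlier results of these data known. Named were METTL3, HRAS, key members of the lists, the 12 largest rises and falls among called genes with a mean of at least 50 and no overlap, up to 6 called members per list with the largest changes, all tested members of lists of up to 15, the 8 called genes with the largest means and a log2 fold change of at least 1, and genes of runs. Others were chosen after their values were seen. Not every gene the rule names is given, and some are not reported here. Alternatives were other pseudocounts, filters and scalings, no trend, fits of 9 and 18 libraries, the replicate block, library weights, each library left out and, added after seeing the data, centring within 10 bins of GC content and 5 of length (99.9% of tested genes had both).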

Additional observations from a re-analysis of the deposited data

Results flagged for a closer look

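For 29 of 284 named genes the libraries of MCF10AT1 all lay on one side of those of MCF10A in the control lines and all on the other side in the METTL3 CRISPR lines, with both contrasts past the threshold. Of these 10 were higher in control MCF10AT1 and 19 were lower. Over all genes, 133 of the 1507 control calls tested in both pairs were called in opposite directions, without the condition on overlap. The 284 include genes not called in the controls, and many were named for the size of their control change. The contrasts shared no library. The difference between the contrasts was not tested, and each line is 1 clone, so the METTL3 guide and the clone cannot be told apart. In the METTL3 CRISPR MCF10AT1 line E-cadherin (CDH1) was at 11.6, 31.7 and 79.2 against 3475, 2105 and 6138 in control MCF10AT1, and ESRP1, a splicing factor of epithelia, was at 0, 25.4 and 2.98 against 2716, 1584 and 2606.

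The log2 fold changes in the METTL3 CRISPR lines follow, with the control value in brackets. Epithelial and junction genes that were higher in control MCF10AT1 gave -1.90 for EPCAM (2.68), -3.54 for ELF3 (2.92), -4.04 for CGN (2.04), -6.61 for CLDN7 (1.14) and -3.13 for LLGL2 (1.33). The receptors ERBB2 and ERBB3 gave -0.57 (1.00) and -4.88 (1.37), RASAL1 -1.49 (2.21), ACMSD -5.66 (6.65) and the glutaminase GLS2 -3.24 (4.82). Mesenchymal, matrix and adhesion genes that were lower in control MCF10AT1 gave 8.77 for FN1 (-2.25), 3.37 for VIM (-1.64), 1.67 for WNT5A (-4.41), 2.74 for IGFBP7 (-1.64), 1.5 for COL4A1 (-2.17), 3.67 for COL6A3 (-3.74), 1.43 for ITGA5 (-2.58), 6.84 for CDH4 (-7.22) and 3.66 for GJA1 (-6.93). Signalling and immune genes of the same kind gave 10.50 for BST2 (-4.08), 2.73 for OAS2 (-2.98), 3.98 for CXCL1 (-1.73), 3.17 for CXCL8 (-2.31), 1.09 for PLAUR (-1.38), 1.74 for SPRY4 (-1.94), 1.31 for RRAS (-1.82), 1.41 for HEY1 (-2.30), 3.05 for SLC2A3 (-5.22) and 1.38 for VLDLR (-2.01).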

How the results depend on the processing

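Where it was tested, no called gene changed direction in the alternatives that kept the values as deposited or rescaled them. Genes under the filter of an alternative had no value there. With the values as deposited, the lack of overlap between the lines fixed the direction in advance. Centring on GC content and length turned 2 of the 1606. The count of 1606 (716 higher, 890 lower) stayed within 1.5 times with other pseudocounts, filters, median-of-ratios scaling, the centring (1816, of which 1245 were among the reported calls) and a minimum log2 fold change of 1. Without the intensity trend 568 fell, 1083 being called in all. It was 4394 (2086 and 2308) in a fit of 9 control libraries and 6109 (2927 and 3182) in a fit of 18, which take the spread from other lines as well, and HRAS, at 0.586, passed in the latter. It was 956 (380 and 576) with equal sums per library, where the median of all genes moved to -0.155, 848 (299 and 549) with library weights, which converged poorly, and 178 (54 and 124) at an adjusted p under 0.01. Leaving out 1 library gave 127 to 6190 calls, 25 to 2828 higher and 93 to 3362 lower, with 1 group then at 2 libraries. Same-lettered libraries had deviations that correlated at 0.294, -0.266 and 0.275, so the letters were not taken as pairs, and with the replicate block 2295 genes were called (1002 and 1293) and 9178 in place of 9377 in the METTL3 CRISPR lines. Those lines had 9361 with equal sums and 7646 with the centring. The depth of each gene is unknown and limits what can be said of genes near 0.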

Other observations

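Further gene groups are described by their counts, beside which 10.2% of all tested genes were called. Of 20 tested Notch genes 2 rose and 1 fell, with a median of 0.61 that became 0.19 with the centring on GC content and length. The target HES7 went from 72.4, 34.5 and 32.97 to 355, 456 and 227 and the regulator DTX1 from 59.2, 20.3 and 10.5 to 189, 119 and 112, while the target HEY1 fell from 49.6, 54.4 and 62.7 to 5.31, 13.96 and 14.8. Of 12 insulin-like growth factor genes 1 rose and 3 fell (33.3%). IGFBP2, which binds the ligands, rose from 306, 99.1 and 96.00 to 1866, 1265 and 907 (log2 fold change 3.16), and IGFBP7, the adaptor IRS2 and the RNA-binding protein IGF2BP2 fell (log2 fold changes -1.64, -1.38 and -1.69). IGF2BP2, an m6A reader, was the 1 called gene of 23 tested m6A writer, eraser and reader genes. Of 18 WNT ligands and antagonists WNT5A and WNT7A fell (log2 fold changes -4.41 and -2.03).

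Of 17 tested breast lineage and hormone receptor genes 2 rose and 1, TP63, fell (17.6%). TFAP2C, an AP-2 factor of luminal cells, went from 326, 316 and 203 to 892, 770.1 and 984 (log2 fold change 1.67, in 3 of 6), and MYB from 25.4, 8.94 and 2.17 to 100.2, 89.6 and 85.1. Of 20 HOX cluster genes 17 had a positive log2 fold change and 1, HOXA7, rose, from 142, 135 and 101 to 489, 482 and 442. The median of the 20 was 0.64, and 0.16 with the centring on GC content and length. HOXA7 lies on chromosome 7 and TFAP2C on chromosome 20. Of 18 aldehyde dehydrogenase and stem cell marker genes NGFR and ALDH3A1 rose, by 3.07 and 2.26. Of 18 G1 cyclins, CDK4/6 and inhibitors E2F1 rose and RBL2, a relative of the retinoblastoma protein, fell (log2 fold change -1.63).

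Of 34 unfolded protein and amino acid stress genes 1 rose and 2 fell, DDIT4 by 1.24, and CTH and VLDLR (-3.37 and -2.01). Of 34 cholesterol and fatty acid synthesis genes SQLE fell (log2 fold change -1.46) and ACSS2 rose by 1.34. SPINK5, an inhibitor of kallikreins, fell from 1138, 1288 and 868 to 83.4, 148 and 194 (in 6 of 6) and was the 1 called gene of 9 in that list. S100A4 was the 1 called of 14 S100 genes, and NLRC5, an activator of MHC class I genes, was the 1 called of 20 MHC class I and antigen processing genes, with 2.04. In limma 0 of 26 clustered protocadherins, 0 of 4 metallothioneins and 0 of 22 replication-dependent histone genes were called, with 2, 1 and 3 of them at an unadjusted p under 0.05.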
